A study of Mus musculus with 72 samples.

Results

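The aryl hydrocarbon receptor (AHR), its partner, its repressors and 4 of its best known target genes were followed through RNA.seq libraries of adult mouse hearts. The 8 genes were chosen by name, by a rule that uses no measured value, from the 24237 genes of the deposited count table: the receptor Ahr, the partner Arnt, the repressors Ahrr and Tiparp, and the enzymes Cyp1a1, Cyp1a2, Cyp1b1 and Nqo1. Earlier results of these data were known when the 8 were chosen. All 8 were found in the table. The study asked whether a disturbed AHR signal before birth leaves a mark on the adult heart. It compared C57BL/6J mice of 4 groups: naïve Ahr+/+ mice, Ahr-/- mice, and Ahr+/+ mice whose dams had received TCDD at 0.1 μg/kg (low dose) or 1 μg/kg (high dose) by gavage on 3 days of gestation. Per the study's methods, TCDD was given in corn oil, naïve mice came from dams gavaged with corn oil alone on the same days, and the Ahr-/- mice were unexposed, so that in the comparison of Ahr-/- with naïve hearts the genotype cannot be told apart from the gavage and its vehicle. The Ahr-/- mice came from a line crossed for several generations into C57BL/6J and then maintained in the laboratory, and their dams and sires were Ahr-/-. Genotype can therefore not be told apart from the line or from the genotype of the dam either. The knock-out allele is not named in the sources used here. A deletion in the germ line, present in every cell and at every age, is all that can be said of that allele. Hearts were dissected into right atrium, left atrium and ventricles at 10 months of age, with 3 mice per sex and group, which gave 72 libraries, 18 for each group and 6 for each group and chamber. The labels give an age of 9 months, later days of gavage and the word TCDD for each of the 72 samples, also those of unexposed mice; the methods were followed for these. The 3 chambers came from the same hearts, and the labels do not tie them, so libraries of different chambers are not independent.

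AHR rests in the cytoplasm bound to the chaperone HSP90. A ligand such as TCDD, a persistent dioxin, sends it to the nucleus, where it pairs with ARNT and binds DNA at response elements with the core GCGTG. Enzymes of the cytochrome P450 family 1 are the classical targets and oxidize many aromatic compounds, and AHRR and TIPARP, themselves targets, damp the receptor: AHRR competes for ARNT, and TIPARP is an enzyme that attaches ADP-ribose to AHR. In the heart the receptor is known for a role in development.

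The 8 genes lie on 6 chromosomes (GRCm38): Ahr at chr12:35497979-35534989, Arnt at chr3:95434367-95497240, Ahrr at chr13:74211118-74292331, Tiparp at chr3:65528447-65555518, Cyp1a1 at chr9:57687928-57703824, its neighbour Cyp1a2 at chr9:57676937-57683655, Cyp1b1 at chr17:79706940-79715061 and Nqo1 at chr8:107388225-107403205. RefSeq promoters (GRCm38.p6, from 250 bases before to 50 after an annotated start of the gene, on its own strand) were matched for 7 of the 8 genes, all but Ahr. The core GCGTG or its reverse complement CACGC stood in 5 of the 7, against 32.386% of all 32851 promoters of the same length. Ahrr held 3 matches, a number reached by 3.915% of promoters, and Arnt, Tiparp, Cyp1a1 and Cyp1b1 held 1 each. The promoters of Cyp1a2 and Nqo1 held none in this window. Those of Cyp1a1, Cyp1b1 and Ahrr are shown, since these targets of AHR showed 3 different patterns in the hearts, with the core in capitals. The windows are chr9:57697363-57697662 on the plus strand for Cyp1a1, and chr17:79715012-79715311 and chr13:74292282-74292581 on the minus strand for Cyp1b1 and Ahrr. That of Cyp1a1 lies inside the span of the gene given above and not at its first base. A match is a run of letters and not a measured binding site.
Cyp1a1: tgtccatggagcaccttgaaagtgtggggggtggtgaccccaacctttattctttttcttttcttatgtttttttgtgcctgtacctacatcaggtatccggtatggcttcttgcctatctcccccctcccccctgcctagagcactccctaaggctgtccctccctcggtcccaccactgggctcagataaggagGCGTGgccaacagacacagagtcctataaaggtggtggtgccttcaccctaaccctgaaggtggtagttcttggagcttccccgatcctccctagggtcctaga
Cyp1b1: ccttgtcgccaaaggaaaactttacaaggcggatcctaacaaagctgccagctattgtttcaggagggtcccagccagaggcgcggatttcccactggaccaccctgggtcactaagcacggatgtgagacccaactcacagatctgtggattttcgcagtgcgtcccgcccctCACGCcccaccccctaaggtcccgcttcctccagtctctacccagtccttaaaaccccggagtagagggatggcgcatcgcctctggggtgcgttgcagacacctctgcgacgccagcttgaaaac
Ahrr: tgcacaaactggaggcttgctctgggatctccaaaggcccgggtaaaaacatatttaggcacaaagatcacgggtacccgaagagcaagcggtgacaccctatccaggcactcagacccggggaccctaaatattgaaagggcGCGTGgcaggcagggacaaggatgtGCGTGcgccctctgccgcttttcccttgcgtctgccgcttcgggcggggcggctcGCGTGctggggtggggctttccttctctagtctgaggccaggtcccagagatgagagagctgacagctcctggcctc

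The libraries held between 11873417 and 28789382 counts, with a median of 19231739, and levels are given in CPM (counts-per-million, relative to all counts of the library). For a gene at 0, the upper limit of 3 counts came to 0.253 CPM in the smallest library; such limits cover counting error only. Heart muscle was clear in all libraries, with Myh6 at 9444 CPM or more. The summed lung markers (Sftpc, Sftpb, Sftpa1 and Scgb1a1) were at 4.41 CPM or less in 66 libraries and over 10 CPM in the other 6, numbers 7, 15, 21, 23, 25 and 65, although Sftpc was at 0 in 69 of 72. They reached 2127 CPM in low-dose right atrial library 15 and 751 CPM in Ahr-/- left atrial library 21. Most of these sums was Scgb1a1, with a highest level of 2061 CPM. Sftpa1, Sftpb and Sftpc were at 62.5, 4.35 and 0.767 CPM or less in every library. The part of lung RNA in the results was not tested. Labels and marker genes disagreed in 17 libraries. In 8 of them, Xist and the Y-linked genes were those of the opposite sex, and in 13 the atrial light chain Myl4 was on the wrong side of 500 CPM for the labelled chamber: 8 libraries labelled atrium lay under it and 5 labelled ventricles over it. Of the 17, 12 were among the 24 libraries numbered 49 to 72. These 12 carried the same labels in every group. They were 50, 56, 62 and 68 (right atrium, female), 51, 57, 63 and 69 (left atrium, male) and 53, 59, 65 and 71 (ventricles, male). The markers do not tell right from left atrium, so libraries that matched may still carry a wrong label. The cause of this pattern was not tested. The labels were kept, and results are given with and without these libraries where they matter.

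The receptor itself was lower in Ahr-/- hearts, in each chamber and without overlap with naïve hearts. In the right atrium, Ahr had a lowest, median and highest level of 11.4, 13.5 and 19.3 CPM in the 6 naïve libraries and of 4.10, 6.39 and 9.23 CPM in the 6 Ahr-/- libraries. In the left atrium the values were 8.59, 12.9 and 21.3 CPM in naïve and 3.41, 5.37 and 5.97 CPM in Ahr-/- hearts. In the ventricles they were 14.0, 18.0 and 30.8 CPM in naïve and 2.00, 3.76 and 7.29 CPM in Ahr-/- hearts. All 6 Ahr-/- libraries thus lay below all 6 naïve libraries in each chamber, which held for 0.0943% of tested genes in the right atrium, 0.116% in the left atrium and 0.229% in ventricles. Transcripts of Ahr were still counted in all 18 Ahr-/- libraries. The counts cover the coding region as a whole, so which part of the gene they came from cannot be told apart here.

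With both sexes in 1 fit and sex as a term, edgeR's quasi-likelihood test gave Ahr a log2 fold change of -2.28 (SE 0.255, adjusted p = 0.00108) in Ahr-/- ventricles and of -1.55 (SE 0.203, adjusted p = 0.0238) in the left atrium. These calls stood against 0.0286% and 0.0136% of all genes called there. In the right atrium, the log2 fold change was -1.20 (95% interval -1.64 to -0.77), with an adjusted p of 0.292 by edgeR and of 0.000181 by DESeq2; edgeR called 0% of 14847 genes in that comparison, although 1265 had an unadjusted p under 0.05, and DESeq2 called 93. The ventricle call was kept when any of the 12 libraries was left out (adjusted p by edgeR from 0.000249 to 0.00832). The left atrium call was lost in 9 of 12 such fits, the highest adjusted p by edgeR being 0.0986 without library 21. Without the 4 libraries of that comparison that went against their label, 3 of them Ahr-/-, the log2 fold change in the left atrium was -1.50 and edgeR's adjusted p 0.184, with 0% of genes called. In the ventricles the values without such libraries were -2.53 and 7.94e-05, with 0.725% called. In libraries 1 to 48 alone, 4 against 4, Ahr was called in the left atrium (-1.63, adjusted p by edgeR = 0.0379, 2.75% of genes called) and in the ventricles (-2.501, adjusted p by edgeR = 0.000659, 0.0581% called).

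**Figure D1:**
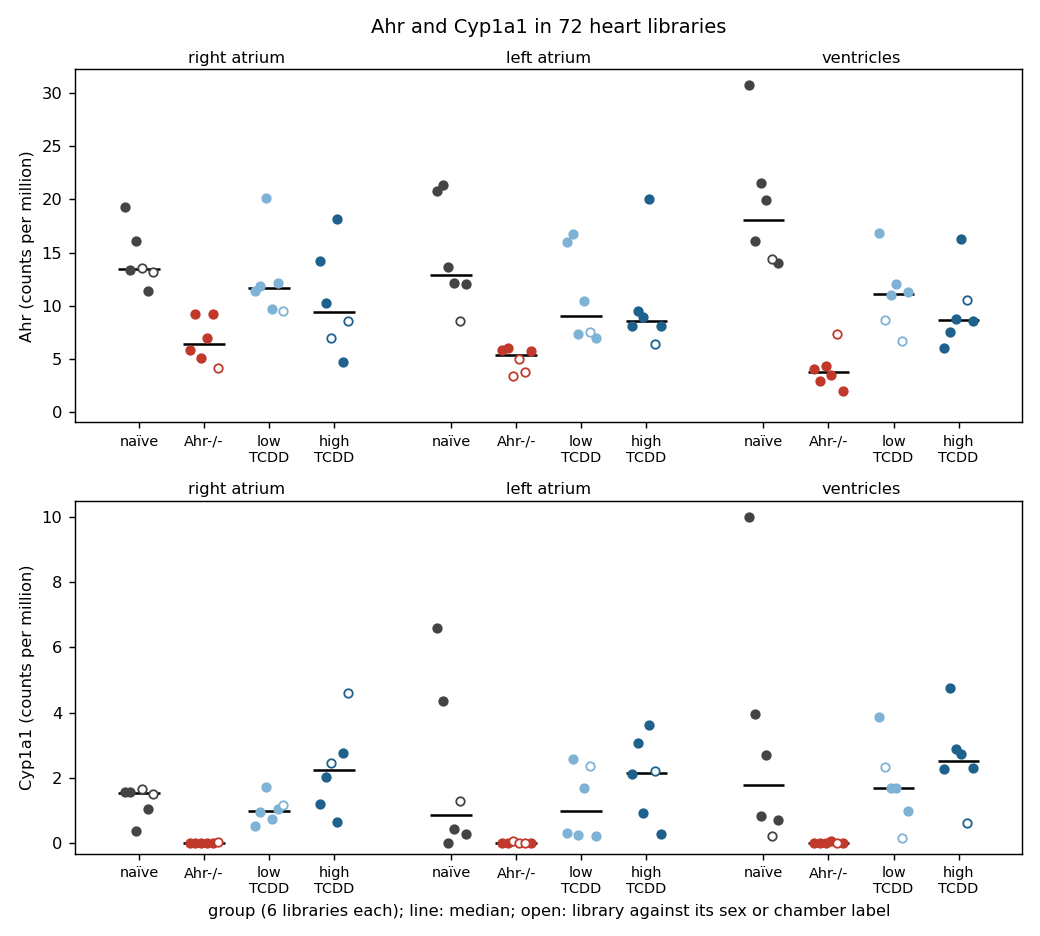
Levels of Ahr (upper panel) and Cyp1a1 (lower panel) in CPM in all 72 libraries, by chamber and group; each point is a library, lines are medians and open points are libraries whose sex or chamber markers go against their label. Ahr-/- hearts lie at 2.00 to 9.23 CPM of Ahr and at 0 to 0.0842 CPM of Cyp1a1.

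After high-dose TCDD in utero, Ahr was lower in the ventricles of the adult. The high-dose libraries had a lowest, median and highest level of 6.01, 8.65 and 16.3 CPM, against 14.0, 18.0 and 30.8 CPM in naïve ventricles; 5 of the 6 high-dose libraries lay below every naïve library and library 44 did not. The log2 fold change was -0.96 (SE 0.256, adjusted p = 0.0291 by edgeR). This call stood in a comparison in which 13.9% of all genes were called, so that Ahr was 1 of 1943 genes called. It was lost in 6 of the 12 fits that left out 1 library, with a highest adjusted p by edgeR of 0.0624 without library 66. Without the 2 libraries against their label the log2 fold change was -1.05 (adjusted p by edgeR = 0.0136, 25.9% of genes called), and in libraries 1 to 48 alone it was -1.18 (adjusted p by edgeR = 0.0312, 15.2% called).

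The low-dose ventricles lay between, at 6.67, 11.1 and 16.8 CPM, with a log2 fold change of -0.71 (95% interval -1.24 to -0.18, adjusted p by edgeR = 0.0696, 13.7% of genes called). In libraries 1 to 48 alone the low-dose change was -0.82 and passed (adjusted p by edgeR = 0.0474, 15.8% called), and without libraries against their label it was -0.51 (adjusted p by edgeR = 0.127, 6.14% called). In the atria no change of Ahr passed the test at either dose. The log2 fold changes there were -0.45 and -0.52 for the high dose and -0.20 and -0.39 for the low dose, right before left, and the high-dose levels, at 4.68 to 18.1 CPM in the right and 6.39 to 20.1 CPM in the left atrium, overlapped naïve ones. High- and low-dose hearts were also compared directly. The log2 difference of Ahr, high minus low, was -0.26 in right atria, -0.11 in left atria and -0.27 in ventricles, where its 95% interval was -0.77 to 0.23, so that a difference between doses was not detected. All 3 groups were compared with the same naïve libraries, which makes their fold changes dependent.

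Cyp1a1, the P450 whose transcription follows AHR activity most closely, was near the limit of detection in naïve hearts and practically without counts in Ahr-/- hearts. The 18 naïve libraries held 700 counts among 343399379, and the 18 Ahr-/- libraries held 3 among 351420372, 1 count in each chamber. As CPM, naïve levels were 239 times those of Ahr-/- hearts, with an exact 95% counting interval of 81.4 to 1161. By chamber the ratios were 178 (31.6 to 7088) in the right atrium, 227 (40.5 to 9018) in the left atrium and 317 (56.4 to 12560) in ventricles. These intervals pool the counts of libraries and cover counting error only, not the spread between libraries or mice. That spread was wide, with 146 of the 700 naïve counts in ventricular library 33 and 133 in left atrial library 17. Of the 18 Ahr-/- libraries, 15 were at 0, and the highest of the other 3 was at 0.0842 CPM.

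In the right atrium, naïve Cyp1a1 was at 0.374, 1.54 and 1.65 CPM (lowest, median and highest of 6), and in the ventricles at 0.213, 1.77 and 9.99 CPM. No Ahr-/- library reached these ranges. The left atrium overlapped, because naïve library 19 was at 0, the median being 0.874 CPM and the highest 6.60 CPM. The minimum counts required for edgeR removed Cyp1a1 from the comparisons of Ahr-/- and naïve hearts with 6 against 6 libraries, so mean log2(CPM + 0.25) was compared by an exact two-sided permutation test over 924 arrangements. The p was 0.0022 in the right atrium and in the ventricles, the smallest this design can give, and 0.0152 in the left atrium; adjusted over the 12 such tests of Cyp1a1 and Cyp1a2, these exact values were 0.013, 0.013 and 0.0606. By sex, edgeR fitted Cyp1a1 only where naïve libraries were high enough to pass the filter, which left 3 of the 6 fits of Ahr-/- against naïve hearts; such fits had to show a difference, none passed, and nothing is read from them.

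Adult hearts exposed to TCDD in utero had no Cyp1a1 level that passed the test against naïve hearts. High-dose libraries were at 0.639, 2.24 and 4.59 CPM in the right atrium, 0.280, 2.16 and 3.63 CPM in the left atrium and 0.610, 2.53 and 4.77 CPM in ventricles. The log2 fold changes were 0.93 (95% interval -0.19 to 2.04), 0.83 (-0.997 to 2.65) and 0.07 (-1.55 to 1.70) in that order, with adjusted p by edgeR of 0.636 or more. The intervals are wide enough to hold both a rise of several fold and none. Low-dose libraries were at 0.538 to 1.73, 0.225 to 2.59 and 0.171 to 3.88 CPM, with log2 fold changes of -0.34, 0.13 and -0.54. High against low dose in the right atrium gave a log2 difference of 1.25 (95% interval 0.20 to 2.30), the one member test of 21 between doses with an unadjusted p under 0.05; its adjusted p by edgeR was 1.00.

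Naïve Cyp1a1 also spread widely within chambers. In the left atrium, the 3 libraries labelled male were at 6.60, 4.35 and 1.30 CPM and the 3 labelled female at 0, 0.449 and 0.294 CPM. In the ventricles, those labelled male were at 9.99, 3.97 and 0.213 CPM and those labelled female at 0.832, 2.71 and 0.716 CPM. The libraries at 1.30 and 0.213 CPM, numbers 51 and 53, are among those that went against their label. The difference between sexes within naïve hearts was not tested.

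Cyp1a2, the liver-typical member of the family, was hardly counted at all. The 18 naïve libraries held 24 counts, with a highest level of 0.336 CPM, and 9 of them were at 0. Ahr-/- libraries held 1 count in all, low-dose libraries 9 and high-dose libraries 17. The ratio of naïve to Ahr-/- CPM was 24.6, with an exact 95% counting interval of 4.01 to 1010. This interval pools counts and covers counting error only, not the spread between libraries, and 7 of the 24 naïve counts were in library 2. None of 9 permutation tests of this gene, which compared libraries within a chamber, passed after adjustment, so that no difference by chamber was detected at this depth.

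Arnt, which pairs with AHR and also with the hypoxia factors, varied little between groups. Over the 18 libraries of a group its lowest, median and highest levels were 36.3, 59.6 and 82.6 CPM in naïve, 37.7, 51.0 and 65.4 CPM in Ahr-/-, 35.0, 50.0 and 74.4 CPM in low-dose and 36.1, 48.7 and 70.0 CPM in high-dose hearts. All 9 log2 fold changes against naïve hearts were below 0, from -0.37 to -0.10, and none passed the test (smallest adjusted p by edgeR = 0.265). With libraries 1 to 48 alone, the low-dose ventricles passed (log2 fold change -0.53, adjusted p by edgeR = 0.0285, 15.8% of genes called).

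Ahrr, the repressor that competes for ARNT, was low throughout and highest in naïve ventricles. There it was at 1.97, 5.48 and 6.73 CPM, against 1.19, 3.25 and 4.64 CPM in Ahr-/-, 1.65, 2.71 and 3.81 CPM in low-dose and 1.22, 2.37 and 4.78 CPM in high-dose ventricles. The ranges overlapped. Library 53, the lowest naïve one, went against its label, and without it the 5 naïve ventricles were at 4.19 CPM or more. The log2 fold changes were -0.83 (95% interval -1.52 to -0.13) in Ahr-/-, -0.83 (-1.49 to -0.17) in low-dose and -0.85 (-1.67 to -0.04) in high-dose ventricles. None passed adjustment over all genes, with edgeR's adjusted p at 0.353, 0.0859 and 0.145. Without libraries against their label the high-dose value was -0.88 with an adjusted p by edgeR of 0.0317 (25.9% of genes called), the low-dose value -0.88 with 0.0564 (6.14% of genes called) and the Ahr-/- value -1.05 with 0.0828. In libraries 1 to 48 alone the low-dose value was -1.14 and passed (adjusted p by edgeR = 0.0208, 15.8% called). In the atria the 6 log2 fold changes ran from -0.67 to 0.02.

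Tiparp, the ADP-ribosylating repressor, had 9 log2 fold changes below 0, from -0.84 to -0.20, none of them past the test. In the ventricles it was at 15.1, 20.9 and 26.5 CPM in naïve, 8.77, 13.4 and 19.7 CPM in low-dose and 7.85, 13.2 and 21.6 CPM in high-dose libraries. The log2 fold changes were -0.45 (95% interval -0.84 to -0.07) and -0.49 (-0.90 to -0.07), with adjusted p by edgeR of 0.106 and 0.110. Without libraries against their label the high-dose change was -0.59 and passed (adjusted p by edgeR = 0.0236, 25.9% of genes called). In libraries 1 to 48 alone both doses passed, with -0.65 for the high dose (adjusted p by edgeR = 0.0427, 15.2% called) and -0.54 for the low dose (adjusted p by edgeR = 0.0372, 15.8% called). The largest difference from naïve hearts was in the Ahr-/- left atrium, with -0.84 (95% interval -1.64 to -0.04, adjusted p by edgeR = 0.299). Its naïve libraries there ran from 9.28 to 76.3 CPM.

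Cyp1b1, the P450 of stroma and vessel wall, did not follow Cyp1a1. It was counted in all Ahr-/- libraries, at 5.02 to 69.1 CPM (median 25.6 CPM), and naïve libraries ran from 3.44 to 88.9 CPM (median 19.2 CPM). In the Ahr-/- right atrium it was at 32.0, 56.9 and 69.1 CPM, against 11.4, 23.1 and 88.9 CPM in naïve libraries, a log2 fold change of 0.74 (95% interval -0.14 to 1.61, adjusted p by edgeR = 0.651). Without libraries against their label that value was 0.20. After TCDD all 6 log2 fold changes of Cyp1b1 were below 0, from -1.06 to -0.28, and none passed; the lowest, in the low-dose right atrium, had a 95% interval of -2.04 to -0.08. The wide intervals go with a wide spread within groups and chambers.

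Nqo1, the quinone reductase under both AHR and NRF2, stayed well counted without the receptor, at 13.0 to 66.3 CPM in Ahr-/- hearts against 14.0 to 92.8 CPM in naïve ones. In the ventricles Ahr-/- libraries were at 33.6, 52.0 and 64.3 CPM and naïve ones at 31.8, 57.6 and 92.8 CPM. The log2 fold change there was -0.11 (95% interval -0.59 to 0.37). Of the 9 log2 fold changes, 7 were below 0 and 2 above it, and the smallest adjusted p by edgeR was 0.339. The lowest was -0.74, in the Ahr-/- right atrium, which was -0.20 without libraries against their label.

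**Figure D2:**
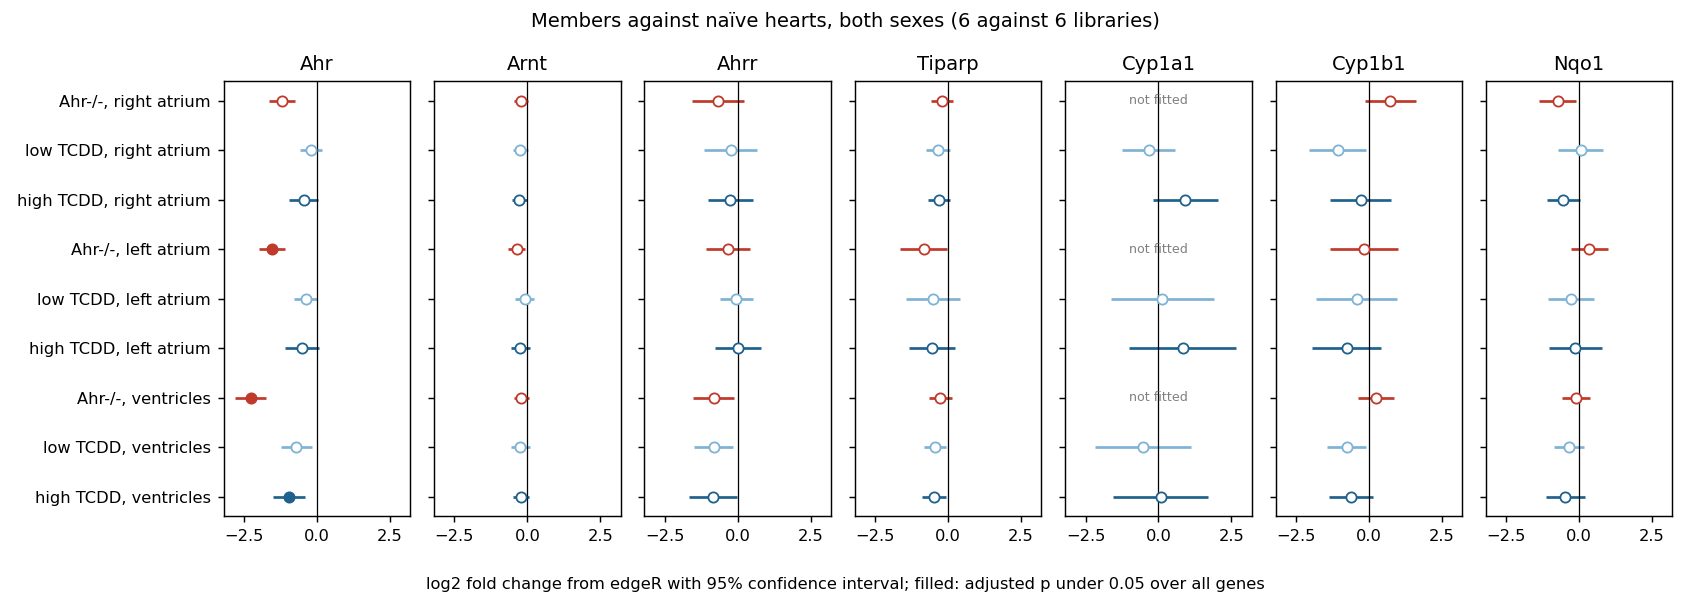
Log2 fold changes of 7 genes against naïve hearts of the same chamber, 6 against 6 libraries, with 95% confidence intervals from edgeR; filled points have an adjusted p under 0.05 over all genes, and Cyp1a1 was not fitted in Ahr-/- hearts. Only 3 points are filled, all of Ahr: Ahr-/- left atrium (-1.55), Ahr-/- ventricles (-2.28) and high-dose ventricles (-0.96).

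Over the 9 comparisons with both sexes, 60 member tests could be made, and 3 passed, all of them of Ahr and all lower. The share of all genes called was 0% in 4 comparisons (Ahr-/- right atrium, low-dose right atrium and both doses in the left atrium), 0.0752% in the high-dose right atrium, and as given above for the rest. In the 4 comparisons with no call, between 1265 and 2675 genes had an unadjusted p under 0.05 by edgeR, and DESeq2 called between 47 and 701. Of the 60 member tests, 16 had an unadjusted p under 0.05 by edgeR, all lower than naïve. Over all genes, between 1124 and 4227 per comparison did so, with 4227 of 13955 in high-dose and 4179 of 13911 in low-dose ventricles. DESeq2 called 6 of the members' tests. They were Ahr in Ahr-/- hearts of all 3 chambers, Ahr in high- and low-dose ventricles, and Cyp1a1 in the Ahr-/- right atrium. Nearly all counts of Cyp1a1 were in naïve libraries there, so that nothing is read from that call. Over all genes, DESeq2 called 2774 of 13248 in high-dose and 2643 of 13671 in low-dose ventricles. In Ahr-/- hearts it called 93 of 16984 in the right atrium, 140 of 13129 in the left atrium and 22 of 12564 in ventricles.

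Each sex alone, 3 against 3 libraries, gave 1 call in 121 member tests over 18 comparisons, the 3 fits of Cyp1a1 in Ahr-/- hearts included: Ahr in Ahr-/- female ventricles, with a log2 fold change of -2.44 (SE 0.261, adjusted p by edgeR = 0.00832, 0.0216% of genes called). Naïve female ventricles were at 21.6, 19.9 and 14.0 CPM and Ahr-/- female ventricles at 4.27, 3.45 and 2.00 CPM. The call was lost in 4 of 6 fits that left out 1 library (highest adjusted p by edgeR 0.173, without library 40). In males the log2 fold change was -2.12, with an adjusted p by edgeR of 0.827; library 59, at 7.29 CPM the highest of the Ahr-/- ventricles, is labelled male and went against its label. Without libraries against their label the male value was -2.66 with an adjusted p by edgeR of 0.0252. That fit rests on naïve libraries 33 and 34 and Ahr-/- libraries 37 and 38 alone, and the share of all genes called in it is not given here. No member passed in high-dose female ventricles, where 23.7% of genes were called; Ahr had a log2 fold change of -0.56 and an adjusted p by edgeR of 0.0864 there. In the other 16 comparisons 0% of genes were called, with 235 or more at an unadjusted p under 0.05 by edgeR.

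Ahr was below naïve in all 18 comparisons by sex, with log2 fold changes from -2.44 to -0.03, and Arnt in all 18 from -0.44 to -0.02; these share naïve libraries among the 3 groups. The sex difference of each change was tested as an interaction. None of 63 member tests passed by edgeR or DESeq2, 3 had an unadjusted p under 0.05, and edgeR called 0% of all genes in each of the 9 models. Over all genes, between 135 and 703 per model had an unadjusted p under 0.05 by edgeR. Direct comparison of high with low dose gave none of 21, with 0%, 0.0203% and 0.00720% of genes called in the right atrium, left atrium and ventricles; DESeq2 called none of the members either.

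Levels of the genes against each other were compared per length of coding sequence in naïve ventricles, as RPKM. Nqo1 led, at 38.7, 70.0 and 113 RPKM (lowest, median and highest), before Arnt at 20.7, 24.5 and 28.5 RPKM, and the ranges of these did not touch. Tiparp at a median of 10.6 RPKM, Ahr at 7.46 RPKM and Cyp1b1 at 4.09 RPKM followed, and their ranges overlapped. Ahrr had a median of 2.61 RPKM and Cyp1a1 of 1.13 RPKM, again overlapping, and Cyp1a2 was at 0. In the naïve right atrium Cyp1b1 had a median of 13.3 RPKM and Tiparp of 17.5 RPKM, with Ahr at 5.58 RPKM.

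The chambers of naïve hearts differed in these genes once the libraries against their label were set aside, and by the labels alone no member passed. With all 18 naïve libraries, the log2 difference of ventricles against right atrium was 0.54 for Ahr, 0.92 for Ahrr, 0.78 for Nqo1, -0.64 for Tiparp and -1.35 for Cyp1b1, and against the left atrium 0.53, 1.15, 0.74, -0.70 and -1.19. Of 21 member tests none passed edgeR or DESeq2, 9 had an unadjusted p under 0.05, and edgeR called 0.00671% of all genes between ventricles and right atrium and 0% in the other two comparisons. Of 14893 genes, 2857 had an unadjusted p under 0.05 between ventricles and right atrium by edgeR. Between ventricles and left atrium 1763 did so, and 130 between the atria. The same fit on the 4 right atrial, 5 left atrial and 5 ventricular libraries that matched their label called 21.3% of genes between ventricles and right atrium, 16.0% between ventricles and left atrium and 0% between the atria. Since Myl4, an atrial gene, served to set libraries aside, a sharper difference between chambers is in part built in.

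On those 14 libraries 8 member tests passed. Nqo1 was higher in ventricles than in the right atrium by 1.63 on the log2 scale (SE 0.239, adjusted p by edgeR = 0.000517) and than in the left atrium by 1.08 (adjusted p by edgeR = 0.00401). Its levels were 45.1, 59.0 and 92.8 CPM in ventricles and 20.2, 27.8 and 37.4 CPM in the right atrium. Ahrr was higher in ventricles by 1.57 and 1.46 (adjusted p by edgeR = 0.00334 and 0.00366). It was at 4.19 to 6.73 CPM there, against 1.17 to 3.44 CPM in the right and 1.57 to 3.55 CPM in the left atrium. The receptor Ahr was higher in ventricles than in the right atrium by 0.79 (adjusted p by edgeR = 0.0194) and Cyp1a1 by 2.77 (adjusted p by edgeR = 0.0101). Levels of Cyp1a1 overlapped, at 0.716, 2.71 and 9.99 CPM in ventricles, the highest in library 33, and 0.374, 1.31 and 1.58 CPM in the right atrium. Its difference was 1.45 in libraries 1 to 48 alone (adjusted p by edgeR = 0.406). With no naïve library set aside, Cyp1a1 differed between chambers by 1.06 at most (adjusted p by edgeR 0.563 or more). The atrial side held Cyp1b1, with -1.66 against the right atrium (adjusted p by edgeR = 0.0442), and Tiparp, with -0.87 against the left atrium (adjusted p by edgeR = 0.0324). Arnt was level, with log2 differences of -0.01 and -0.03. In libraries 1 to 48 alone, Ahrr against the left atrium was the 1 member test that passed (1.41, adjusted p by edgeR = 0.0419). The share of all genes called in that fit is not given here.

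**Figure D3:**
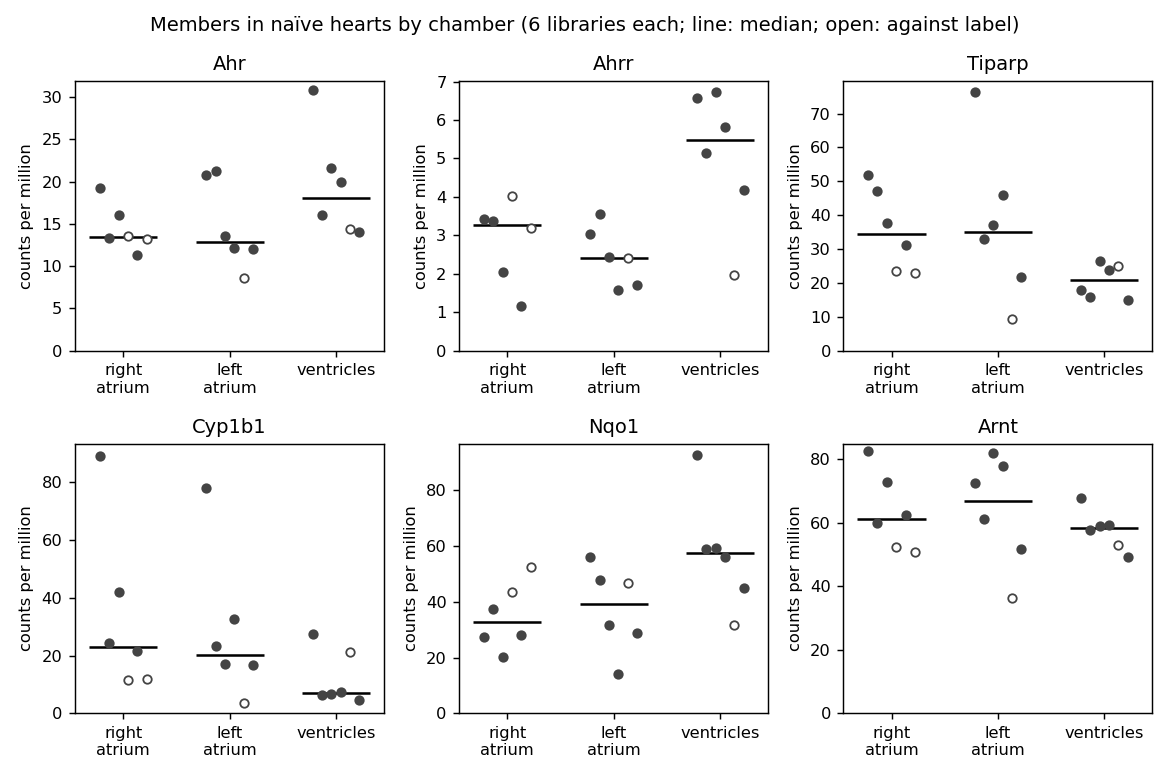
CPM of 6 genes in the 18 naïve libraries by labelled chamber; each point is a library, lines are medians over 6 libraries, and open points are libraries against their label. Nqo1 and Ahrr are higher in ventricles (medians of 57.6 and 5.48 CPM) and Cyp1b1 and Tiparp in the atria, with open points on the other side of their group in several panels.

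Across all 72 libraries, Cyp1b1, Tiparp and Nqo1 moved with the chamber genes. Spearman's rho with Myl4 was 0.75 for Cyp1b1, 0.73 for Tiparp and -0.69 for Nqo1, and with the ventricular light chain Myl2 it was -0.68, -0.63 and 0.73. Arnt did so too, with rho of 0.61 for Myl4 and -0.72 for Myl2, although it was level between naïve chambers. Cyp1b1 and Tiparp were also higher where the summed fibroblast markers were higher (Col1a1, Col1a2, Pdgfra and Dcn; rho of 0.72 for each), and Nqo1 was lower where the mesothelial markers were higher (-0.68). These are descriptions over libraries that share hearts, depth and chamber, and the part of tissue makeup in the group differences above was not tested. In bulk tissue, fewer cells of a type and less RNA per cell cannot be told apart. Among the members, naïve libraries gave rho of 0.81 for Tiparp and Cyp1b1, 0.78 for Ahrr and Nqo1, 0.69 for Ahr and Ahrr and 0.65 for Cyp1a1 and Nqo1.

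**Figure D4:**
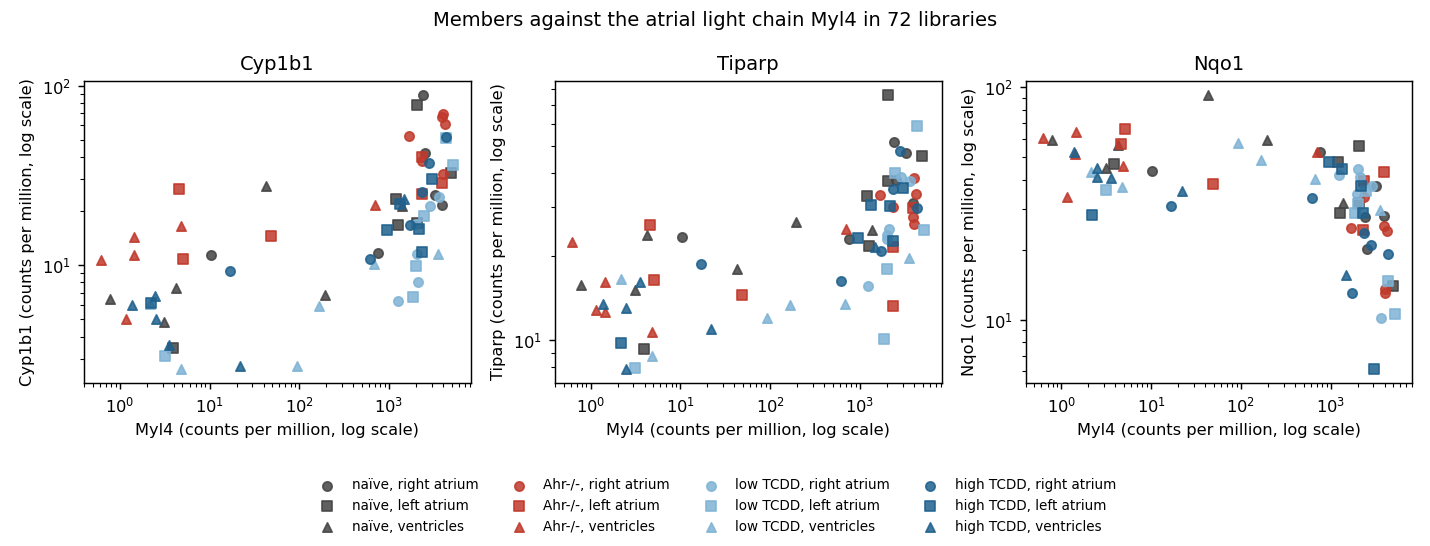
Cyp1b1, Tiparp and Nqo1 (each panel, CPM, log scale) against Myl4 (CPM, log scale) in 72 libraries; colours are groups and shapes labelled chambers. Over the 72 libraries together, Cyp1b1 and Tiparp are high and Nqo1 is low where Myl4 is high, and some triangles and squares lie on the side of the other chamber.

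The genes most like each member were sought among 14434 genes by Spearman's rho over the 72 libraries. Tiparp had the closest company, with Atl2 (0.93), Pld1 (0.91) and Kcnj3 (0.91), followed by Cyp1b1 with Eps8 (0.91), Pla2g7 (0.90) and Gcnt1 (0.89), and Arnt with Mon2 (0.88), Copa (0.86) and Sestd1 (0.85). Nqo1 went with Kmt5a (0.84), Lgi1 (0.83) and Scube2 (0.82), and Ahrr with Lrrc2 (0.68), Camta1 (0.66) and Kctd9 (0.66). For Ahr the first were Zfp277 (0.71), Ogt (0.71) and Scin (0.70). Zfp277 and Scin lie on chromosome 12 as Ahr does, 4780.1 and 4524.8 kb away. Without the Ahr-/- libraries, a step added after the data were seen, rho over the other 54 libraries was 0.55 for Zfp277, 0.42 for Scin and 0.75 for Ogt. Cyp1a1 had no close company, with Nabp1 (0.55), Gpat3 (0.54) and Apold1 (0.54), and Cyp1a2 was too rare to be ranked.

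Of further genes of the pathway, in 5 lists, few passed outside the ventricles of TCDD-exposed mice. Counts over the 9 comparisons with both sexes follow; of all genes, 13.9% were called in high-dose and 13.7% in low-dose ventricles, and 0.0752% or less in each of the other 7 comparisons. The enzymes induced through AHR in other tissues (11 genes, among them Aldh3a1 and the glutathione transferases) gave 0 calls in 78 tests. Other AHR-responsive genes gave 1 higher and 1 lower in 56 tests. The coregulators and turnover factors gave 4 higher and 10 lower in 90, and the NRF2-driven genes 0 higher and 3 lower in 90. The relatives of ARNT in the bHLH-PAS family gave 2 higher and 4 lower in 75.

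In Ahr-/- hearts none of these genes passed in any chamber, where 0% (right atrium), 0.0136% (left atrium) and 0.0286% (ventricles) of all genes were called, so that little can be read from it. In high-dose ventricles the coregulators Ncoa2 (log2 fold change -0.81), Ep300 (-0.77) and the cell cycle inhibitor Rb1 (-0.86), which binds AHR, fell, and the ubiquitin-like Nedd8 (0.93) and the NF-kB subunit Relb (1.05) rose. EdgeR's adjusted p for these ran from 0.00896 to 0.0113. In low-dose ventricles Ncoa2 (-0.79), Ep300 (-0.69), Ncoa1 (-0.56) and Rb1 (-0.83) fell and Nedd8 (0.83) rose. Of the 10 coregulators and turnover factors, 2 were called higher and 5 lower at each dose, where 13.9% and 13.7% of all genes were called. The median log2 fold change of the 10 was -0.53 in high-dose and -0.53 in low-dose ventricles, against 0.05 and 0.00 over all genes tested. In the high-dose right atrium the clock factors Arntl (2.93, adjusted p by edgeR = 0.00363) and Npas2 (1.61, adjusted p by edgeR = 0.0222), relatives of ARNT, rose, and Arntl was higher at the high than at the low dose in the left atrium (2.24) and ventricles (2.51). Against naïve ventricles the calls in this family went the other way, with 0 higher and 1 lower at the high dose and 0 higher and 3 lower at the low dose. Npas2 was among these 3 (-1.11, adjusted p by edgeR = 0.0434). These lists were chosen with earlier results of the data known.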

How the data were processed

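RNA.seq was measured in 72 mouse heart libraries. Per the study's methods and the submitters' processing notes, the authors made polyA libraries, sequenced single reads, converted them with bcl2fastq and CASAVA 1.8, aligned them to mm10 with TopHat and counted reads on coding regions. The deposited values are raw counts per gene, without normalization; strand and multiply aligned reads are not given in the sources used here. Reads without molecular identifiers are not independent molecules. Of 24237 Entrez IDs, 24155 matched a RefSeq symbol; the others hold 3.911% of the counts, and 3065 genes have none. Library pairs of a group all differed beyond counting noise. The labels do not name the mouse of each library, so p-values measure the spread between libraries, which may in part be technical.

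Each comparison was fitted with edgeR 4.0.16 in R 4.3.3 (filterByExpr with a minimum count of 10 and total of 15, TMM, robust quasi-likelihood F test), and p-values were adjusted by Benjamini-Hochberg over all genes, with calls under 0.05. Genes removed by the filter were compared by exact permutation (scipy 1.17.1, pseudocount 0.25). RPKM used the union of coding exons in GENCODE vM21. Figures used matplotlib 3.10.9. The scripts were tested on simulated counts. Depth ran from 11873417 to 28789382 counts.

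The 8 members, the pathway and marker lists and the tests were chosen with earlier results of these data known. Named are the 8 members, the listed pathway genes called with 6 against 6 libraries (at most 5 per comparison by adjusted p), the 3 genes most like each member, and marker genes as ranges. Alternatives were no low-count filter, RLE, library size only, DESeq2 1.42.0, a term for the library series (1 to 48 against 49 to 72), libraries 1 to 48 only, all libraries but those against their label, all 4 groups in 1 fit, no sex term, pseudocounts of 0.05 and 1, and each library left out in turn. Likeness without the Ahr-/- libraries was added after the data were seen. One further list of genes is not reported here.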

Additional observations from a re-analysis of the deposited data

Results flagged for a closer look

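In 8 of 81 groups of 6 libraries, the highest or lowest library stood apart from the other 5, its gap to the next on the log2(CPM + 0.25) scale, as a share of the range of the group, being past Dixon's 95% critical value; chance alone marks about 1 group in 20. Ahr was at 20.1 CPM in low-dose right atrial library 15, where the next library was at 12.1 CPM. In high-dose left atrium, library 28 was at 20.1 CPM of Ahr and the next at 9.53 CPM. Arnt was at 61.5 CPM in low-dose ventricular library 71, above the next at 44.3 CPM. Tiparp was at 9.71 CPM in high-dose left atrial library 63, below the next at 22.7 CPM. Cyp1a1 was at 0.374 CPM in naïve right atrial library 3, below the next at 1.06 CPM.

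Nqo1 was marked 3 times, each time for a low library. It was at 10.2 CPM in low-dose right atrial library 15 (next 34.8 CPM), at 6.13 CPM in high-dose left atrial library 64 (next 28.1 CPM) and at 15.5 CPM in high-dose ventricular library 65 (next 35.8 CPM). Libraries 63, 65 and 71 are among those whose marker genes went against their label. Library 15, whose sex and chamber markers matched its label, had both the highest Ahr and the lowest Nqo1 of its group. Its summed lung markers, mostly Scgb1a1, were at 2127 CPM, against 0.878 CPM or less in the other 5 libraries of the group. Its smooth muscle and pericyte markers were at 1306 CPM, against 257 to 798 CPM, and its ventricle markers at 21.9 CPM, against 3198 to 7526 CPM. Without it, the low-dose right atrium had log2 fold changes of -0.33 for Ahr (adjusted p by edgeR = 0.388) and 0.30 for Nqo1 (adjusted p by edgeR = 0.602). The part of these other tissues and of the marker disagreement in the values was not tested.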

How the results depend on the processing

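Counts of member tests that passed an adjusted p of 0.05 moved with the libraries and the tool. With both sexes (3 calls), there were 5 without the low-count filter, 6 by DESeq2, 9 in libraries 1 to 48, 5 without libraries against their label and 5 with all 4 groups in 1 fit, and 2 to 6 when 1 library was left out. Cyp1a1 in Ahr-/- hearts, with nearly all counts in naïve libraries, made up 2, 1, 1, 1 and 2 of those 5 counts in this order, and nothing is read from these calls. In high- and low-dose ventricles, 15.2% and 15.8% of all genes were called in libraries 1 to 48, and 25.9% and 6.14% without libraries against their label. DESeq2 called 2774 of 13248 and 2643 of 13671 genes there. By sex (1 call), there were 2 without the filter, 2 with library size only, 9 by DESeq2, 6 in libraries 1 to 48, 4 without libraries against their label (17 of 18 comparisons; the high-dose female right atrium could not be fitted) and 0 to 3 with 1 library left out. Cyp1a1 in Ahr-/- hearts made up 4 of the 9, 1 of the 6 and 1 of the 4. By sex, DESeq2 called 3506 of 13012 genes in high-dose female ventricles and 541 or fewer in each other comparison. For naïve chambers (0 calls), there was 1 in libraries 1 to 48, 8 without libraries against their label and 0 to 1 with 1 library left out. Without libraries against their label, 21.3% of all genes were called between ventricles and right atrium and 16.0% between ventricles and left atrium. The permutation tests (2 calls) gave 0 in libraries 1 to 48, where the smallest exact p for 4 against 4 libraries is 0.0286, and 2 to 4 with 1 library left out. Interaction and dose tests stayed at 0 under every alternative run. No log2 fold change of Ahr that was followed changed sign. With both sexes, calls in the alternatives other than leaving out 1 library were all lower than naïve. No paired analysis was possible because the library numbers are unique and the labels do not tie chambers to a heart. Depth limits Cyp1a2 and the Ahr-/- levels of Cyp1a1 to upper limits.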
